A study of Mus musculus with 10 samples.

Results

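The interferon receptor chains Ifnar1, Ifnar2, Ifngr1 and Ifngr2, the kinases Jak1, Jak2 and Tyk2 and the inhibitors Socs1 and Socs3 were followed in neutrophils from grafted mouse tumours. They were taken by name, as the entries whose Ensembl identifier carries these symbols in the mouse GENCODE M21 annotation, and all 9 were found among 55385 mouse gene entries. RNA was sequenced in bulk from 10 libraries of Tomato+ cells. Every host was a CatchupIVM-red mouse, in which a Tomato reporter is linked to the neutrophil gene Ly6g, and every graft was a squamous cell carcinoma (SCC). The control groups carried parental Sox2low SCC cells, and the Sox2Hi groups carried SCC cells with high Sox2, a transcription factor of stem and progenitor cells. The sample descriptions also mark every library C57 and the control grafts GFP, and say no more of either. Treated mice received anti-PDL1 and a CD40 agonist, a checkpoint-blocking antibody given with an activator of antigen-presenting cells, whereas naive mice had no such treatment. There were 3 naive and 2 treated libraries of the control graft, and likewise 3 naive and 2 treated libraries of the Sox2Hi graft. Age, sex, dose and the number of mice behind a library were not given in the sources used here, so p-values measure the spread between these libraries, which may be technical in part. The question was whether the machinery that receives interferon differed between neutrophils of the Sox2low and Sox2Hi grafts.

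Type I interferons bind a receptor made of the chains IFNAR1 and IFNAR2, which carry the kinases TYK2 and JAK1. Interferon gamma binds the chain IFNGR1, which pairs with IFNGR2, and these carry JAK1 and JAK2. The kinases phosphorylate STAT proteins that enter the nucleus and switch on interferon-stimulated genes, among them Socs1 and Socs3, whose products bind the receptors or kinases and damp the signal. Neutrophils carry both receptors and also use JAK1 and JAK2 for the receptors of growth factors such as G-CSF.

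The libraries held 13815734 to 22986193 counts. Neutrophil markers (12 genes) made up 1.28 to 2.02% of counts in naive libraries, 2.69 to 2.81% in control treated and 1.64 to 2.02% in Sox2Hi treated libraries. Ly6g itself had 32 to 63 counts in naive and 85 to 246 in treated libraries. Markers of macrophages and dendritic cells took 0.039 to 0.156% and those of keratinocytes 0.0262 to 0.163%, and no gene of any of the 8 marker lists was at 0 throughout a group. Sox2 had 31 to 43 counts in control naive and 15 to 26 in Sox2Hi naive libraries, and 3 and 12 in control treated and 16 and 16 in Sox2Hi treated libraries. These low counts were thus not higher in Sox2Hi grafts at both treatments. The count of the Y-linked gene Ddx3y was at most 8 in 4 libraries and at least 1007 in 6, and each group held both kinds. Reads expected at the rate of 1466 silent olfactory and vomeronasal receptor genes came to 1.58 to 1.74% of counts in control treated libraries. They came to 5.02 to 8.39% in control naive, 3.63 to 3.92% in Sox2Hi naive and 4.04 to 4.96% in Sox2Hi treated libraries. Fewer cells of a type and less RNA per cell cannot be told apart in bulk libraries.

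The stretches before the RefSeq starts of 3 members hold matches to short motifs that factors of interferon and cytokine signalling bind. They were read from RefSeq's promoter table (GRCm38.p6), in which all 9 members were found, and cover the 250 bases before the RefSeq start. Capitals mark a GAS motif, TTCNNNGAA, which STAT dimers bind, in Ifnar2 and Socs3, and in Socs1 an ISRE core, GAAANNGAAA, which a complex with STAT2 and IRF9 binds. Both strands were searched. Ifnar2 lies at chr16:91372533-91372782 (plus strand) and Socs1 at chr16:10785537-10785786 (minus strand). The Socs3 stretch, from 250 to 86 bases before the start, lies at chr11:117969452-117969616 (minus strand), shortened because an annotated exon of another Socs3 transcript follows. That stretch is within the Socs3 span in GENCODE M21 (chr11:117966079-117970047), so it is upstream of the RefSeq start only. A check that bases after this start occur in a GENCODE Socs3 transcript failed.
Ifnar2: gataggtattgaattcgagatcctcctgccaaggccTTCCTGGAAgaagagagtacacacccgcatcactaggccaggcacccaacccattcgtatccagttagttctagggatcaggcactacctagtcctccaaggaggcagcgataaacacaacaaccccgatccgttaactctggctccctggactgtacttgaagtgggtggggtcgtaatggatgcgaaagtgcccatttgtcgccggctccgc
Socs1: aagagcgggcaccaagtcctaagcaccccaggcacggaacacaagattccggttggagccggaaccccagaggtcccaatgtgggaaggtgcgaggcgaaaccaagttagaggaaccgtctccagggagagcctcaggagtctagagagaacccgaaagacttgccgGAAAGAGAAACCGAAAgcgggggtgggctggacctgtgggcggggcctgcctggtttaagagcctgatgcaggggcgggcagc
Socs3: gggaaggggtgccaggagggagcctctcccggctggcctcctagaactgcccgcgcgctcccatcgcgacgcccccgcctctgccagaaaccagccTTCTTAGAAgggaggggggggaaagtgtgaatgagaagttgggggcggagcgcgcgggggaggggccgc
The Ifnar2 match, TTCCTGGAA, began 214 bases before the start and that of Socs3, TTCTTAGAA, 154 bases before it. Socs1 held a pair of overlapping ISRE cores, GAAAGAGAAA at 83 and GAAACCGAAA at 77 bases before its start. GAS motifs were in 2 of 9 members and in 7.02% of 32841 windows of this length, and ISRE cores in 1 of 9 members and 2.98% of windows. A GAS motif with 1 more base in its spacer, TTCNNNNGAA, was found in Ifngr2 alone of the members (TTCCCGGGAA, 91 bases before the start) and in 5.85% of windows. These are matches of letters and no measure of binding.

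Levels of the members spanned a wide range. They are given as scaled CPM, in which a gene's count is set against the library's counts in 11274 genes whose mean reached 5 CPM of all counts (before scaling), adjusted by TMM factors (a trimmed mean of the libraries' ratios) from those genes. Per kilobase of exon, the mean over 10 libraries was 77.3 scaled CPM for Ifngr1, the chain that binds interferon gamma. The kinases Jak2 and Jak1 followed at 30.8 and 26.8 CPM per kb, then Ifnar2 at 16, Socs3 at 12.7, Ifnar1 at 8.71 and Ifngr2 at 8.64 CPM per kb. Socs1 stood at 1.8 and Tyk2 at 0.777 CPM per kb. The order of neighbours held in 10 of 10 libraries except for Jak2 over Jak1 and Ifnar2 over Socs3, each in 8 of 10, and Ifnar1 over Ifngr2, in 6 of 10. These 3 pairs of neighbours changed places between libraries.

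Tyk2 and Socs1 were so low that background mattered. Tyk2 had 63 to 108 counts a library, and the silent-gene rate alone accounted for 18.4 to 77.1% of them. In Socs1, with 56 to 139 counts, the same share ran from 5.26 to 40.3%. In each of the other 7 members it was at most 8.52% in every library. For Tyk2 the share averaged 60.2 ± 16.3% (SD, n = 3) in control naive and 22.9 ± 6.38% (n = 2) in control treated libraries. In the Sox2Hi graft it was 39.4 ± 0.843% (n = 3) when naive and 39.5 ± 1.18% (n = 2) when treated. Once that background was subtracted, neither gene passed the 5 CPM filter. Tyk2 also overlaps an antisense gene, 1700084C06Rik, with 37 counts over all libraries against 889 for Tyk2, and Jak1 overlaps Raver2 on the opposite strand (433 against 32112 counts). Whether counting used strand was not given in the sources used here.

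**Figure D1:**
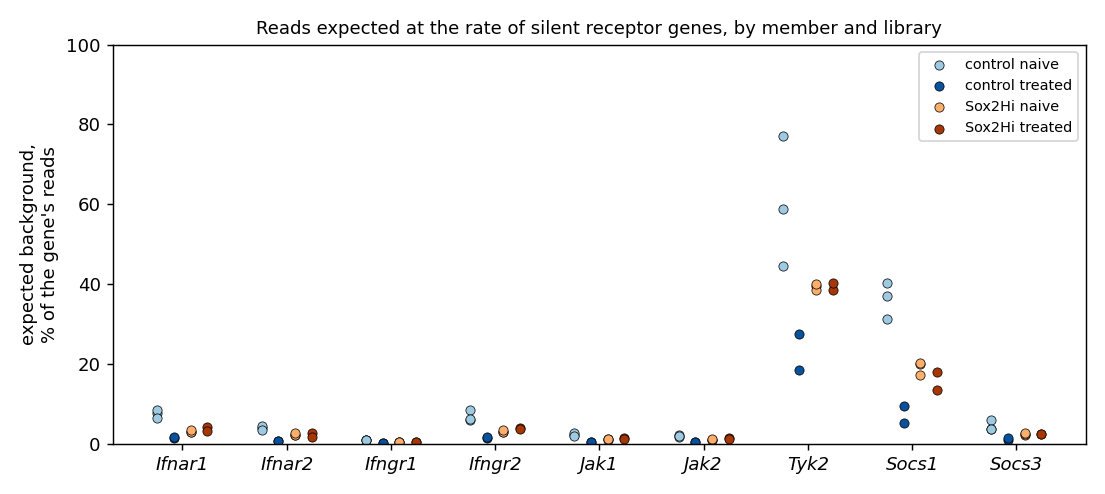
Share of each member's reads expected at the rate of silent receptor genes (y axis, %), by member (x axis), for each library (points, coloured by group). Tyk2 and Socs1 reach 77.1% and 40.3%, and the other 7 members stay at or under 8.52%.

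With treatment, the receptor chains and the kinases Jak1 and Jak2 rose in neutrophils of the control graft. All 4 receptor chains, Jak1, Jak2 and Socs3 rose, by 1.55 to 2.37-fold, and Socs1 rose in the wider test that includes it, whereas Tyk2 stood at 0.01 on the log2 scale. Ifnar2, the chain with the higher affinity for type I interferon (Ensembl ENSMUSG00000022971, chr16:91372783-91405589 in GRCm38, GENCODE M21, as are the positions that follow), gave 35.7, 46.2 and 34.3 scaled CPM in naive and 98.3 and 85.4 in treated libraries. Both treated values lay well above the highest naive one. The mean went from 38.7 ± 6.49 (SD, n = 3) to 91.9 ± 9.14 CPM (n = 2), a log2 fold change of 1.25 ± 0.21 (SE, adjusted p = 0.00087, edgeR quasi-likelihood test). Its partner Ifnar1 (ENSMUSG00000022967, chr16:91485238-91507441) gave 33.2, 43.5 and 32.6 CPM in naive and 79.8 and 61.8 CPM in treated libraries. The groups did not overlap, and the log2 fold change was 0.96 ± 0.19 (SE, adjusted p = 0.0019, edgeR).

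The interferon gamma receptor moved the same way. Ifngr1 (ENSMUSG00000020009, chr10:19591949-19610229) was at 140, 193 and 112 CPM in naive and 366 and 303 CPM in treated libraries of the control graft. Its naive libraries spread widely, yet all lay under the treated ones, with a log2 fold change of 1.18 ± 0.25 (SE, adjusted p = 0.0025, edgeR). Ifngr2 (ENSMUSG00000022965, chr16:91547072-91565623), the chain that brings JAK2 to the receptor, was at 27.1, 27.5 and 21.6 CPM in naive and at 47.3 and 35.6 CPM in treated libraries. Its log2 fold change of 0.71 ± 0.18 (SE, adjusted p = 0.0071, edgeR) was the smallest among the 4 receptor chains.

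Among the kinases, Jak1 (ENSMUSG00000028530, chr4:101152367-101265282), which serves both receptors, gave 144, 166 and 128 CPM in naive and 292 and 222 CPM in treated libraries of the control graft (log2 fold change 0.82 ± 0.17 SE, adjusted p = 0.0027, edgeR). Jak2 (ENSMUSG00000024789, chr19:29251828-29313080), which serves the interferon gamma receptor, gave 132, 149 and 96.6 against 224 and 256 CPM (0.93 ± 0.19 SE, adjusted p = 0.0023). In both kinases every treated library exceeded every naive one. Tyk2 (ENSMUSG00000032175, chr9:21104068-21131243), the kinase on IFNAR1, gave 5.03, 5.53 and 5.5 CPM against 4.55 and 6.19 CPM. Its groups overlapped, and the interval of 2 SE around its log2 fold change ran from -0.38 to 0.40.

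The feedback inhibitor Socs3 (ENSMUSG00000053113, chr11:117966079-117970047) gave 33.2, 30.5 and 27.6 CPM in naive and 58.2 and 36.3 CPM in treated libraries of the control graft. The second treated library lay only just above the naive ones, and the log2 fold change was 0.63 ± 0.21 (SE, adjusted p = 0.024, edgeR). The call was lost without control treated replicate 1 and without control naive replicate 3, and was kept in 19 of 25 alternative analyses. Socs1 (ENSMUSG00000038037, chr16:10782240-10785536), an inhibitor of the kinases themselves, gave 3.39, 4.48 and 3.32 CPM in naive and 10 and 5.12 CPM in treated libraries. Its mean of 4.88 CPM before TMM scaling missed the 5 CPM filter. Tested among 21660 genes of at least 1 CPM with the same scaling, its log2 fold change was 1.02 ± 0.28 (SE, adjusted p = 0.0099, edgeR), where 14.3% of genes were higher.

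In all, 7 of the 8 members tested were called higher in treated control grafts at an adjusted p under 0.05, where 24.1% of all 11274 genes tested were called higher and 57.3% changed in either direction. Libraries of the 2 groups did not overlap in the same 7, against 29.6% of genes with no overlap and treated libraries higher. The median log2 fold change of the 8 was 0.87, beside -0.18 for all genes tested, 0.08 for genes of 20 to 100 CPM and 0.54 for genes of 100 CPM or more. Ifngr1, Jak1 and Jak2 belong to that last class, of which the median was above 0. The neutrophil marker share was higher and the background share lower in the 2 control treated libraries, and S100a8, an abundant neutrophil transcript, went from 1218 to 1910 CPM in naive to 7539 and 10217 CPM. Marker shares of other cells also differed with treatment. Fibroblast and endothelial markers (6 genes) took 0.0209 to 0.0681% of counts in control naive and 0.00457 to 0.0057% in control treated libraries, and 0.0366 to 0.0618% and 0.00697 to 0.0182% in Sox2Hi ones. Erythroid markers (3 genes) took 0.0324 to 0.0787% and 0.00188 to 0.0113% in control naive and treated libraries, and 0.0154 to 0.0348% and 0.00148 to 0.00255% in Sox2Hi ones. Mean shares of macrophage and dendritic cell markers were 0.0864 and 0.0554% in control and 0.135 and 0.0914% in Sox2Hi grafts, naive and treated, and those of keratinocyte markers 0.104 and 0.0407%, and 0.0812 and 0.0524%. The part of cell composition or background in the rise of the receptors was not tested. The 7 log2 fold changes were above 0 under every scaling tried. With libraries scaled by their totals only, the count fell to 4 (Ifnar1, Ifnar2, Ifngr1 and Jak2).

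**Figure D2:**
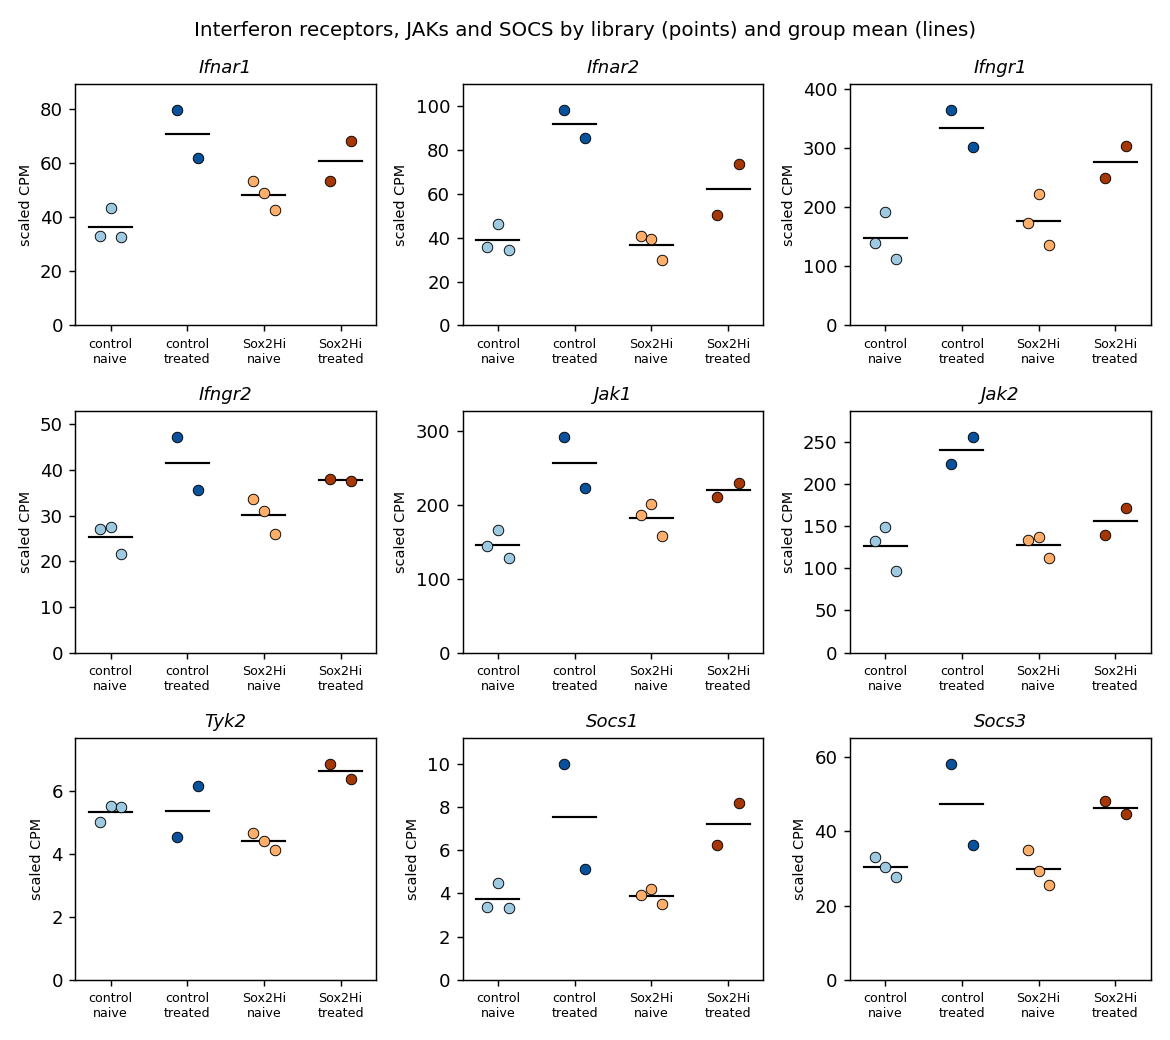
Scaled CPM (y axis, from 0) of each of the 9 members in each library (points) of the 4 groups (x axis), with the group mean as a line. Control treated libraries lie highest for Ifnar2 (85.4 and 98.3 CPM) and Jak2 (224 and 256 CPM), and treated libraries lie above naive ones of the same graft for all members but Tyk2 in the control graft.

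In Sox2Hi grafts Ifnar2 and Tyk2 rose with the same treatment, and no other member passed the test. Ifnar2 gave 40.5, 39.5 and 29.6 CPM in naive and 50.4 and 73.5 CPM in treated libraries, with the lower treated library close to the naive ones. Its mean went from 36.5 ± 6 (SD, n = 3) to 61.9 ± 16.3 CPM (n = 2), a log2 fold change of 0.76 ± 0.21 (SE, adjusted p = 0.03, edgeR). Tyk2 gave 4.67, 4.41 and 4.15 CPM in naive and 6.88 and 6.41 CPM in treated libraries (0.59 ± 0.19 SE, adjusted p = 0.048, edgeR). That call was kept in 2 of 22 alternative analyses, and 39.4% of the naive reads of Tyk2 were at the background rate. Ifnar2 kept its call in 16 of 25 alternatives, and Socs3, at an adjusted p of 0.052 (edgeR), was called in 8 of 25, among them both replicate blocks.

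The other members of the Sox2Hi graft did not pass the test. Ifnar1 gave 53.3, 49 and 42.7 CPM in naive and 53.5 and 68.3 CPM in treated libraries, so that its groups nearly touched (log2 fold change 0.33, 2 SE interval -0.05 to 0.72). Ifngr1 gave 174, 222 and 137 against 250 and 305 CPM (0.64 ± 0.25 SE, adjusted p = 0.083, edgeR). Ifngr2 gave 33.6, 31.1 and 25.9 against 38.1 and 37.6 CPM (0.32, interval -0.04 to 0.69). All treated values of these 3 receptor chains lay above the naive ones.

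Jak1 gave 186, 201 and 158 CPM in Sox2Hi naive and 210 and 229 CPM in Sox2Hi treated libraries (log2 fold change 0.27, 2 SE interval -0.08 to 0.62). Jak2 gave 134, 137 and 112 against 139 and 172 CPM (0.28, interval -0.10 to 0.67). The lower treated library of Jak2 stood just above the highest naive one. Socs3 gave 34.9, 29.2 and 25.6 against 48.1 and 44.7 CPM (0.64 ± 0.21 SE, adjusted p = 0.052, edgeR), and its fold of 1.55 was that of the control graft. Socs1 gave 3.93, 4.19 and 3.49 against 6.25 and 8.19 CPM (0.90 ± 0.28 SE, adjusted p = 0.062 in the wider test, where 7.96% of genes were higher).

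Thus 2 of 8 members were called higher in treated Sox2Hi grafts, beside 15% of all genes called higher and 21.6% in either direction. Treated libraries lay above naive ones without overlap in all 8, as in 37% of all genes tested. The members' median log2 fold change was 0.46, beside 0.09 for all genes and 0.15 for genes of 100 CPM or more. This comparison rested on few libraries: leaving out any of Sox2Hi naive replicate 2, Sox2Hi naive replicate 3 and Sox2Hi treated replicate 2 left no member called, and leaving out control treated replicate 2 left 3 (Ifnar2, Socs1 and Socs3). Without control naive replicate 1 or 2, or Sox2Hi treated replicate 1, Ifnar2 alone was called, and without control treated replicate 1 Socs3 alone.

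Between naive grafts no member passed the test in the analysis of all 4 groups. The nearest was Ifnar1, whose mean was 36.4 ± 6.13 CPM (SD, n = 3) in control and 48.3 ± 5.32 CPM (n = 3) in Sox2Hi grafts. The lowest Sox2Hi library (42.7 CPM) overlapped the highest control one (43.5 CPM), and the log2 fold change was 0.41 ± 0.17 (SE, adjusted p = 0.16, edgeR). Jak1 went from 146 ± 19.1 to 182 ± 21.8 CPM (n = 3 each), with a log2 fold change of 0.32 and a 2 SE interval from 0.00 to 0.63. Ifngr1 (0.26, interval -0.19 to 0.71) and Ifngr2 (0.25, interval -0.08 to 0.58) had similar values with overlapping groups.

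Ifnar2, Jak2, Socs1 and Socs3 were near 0 between naive grafts. Their log2 fold changes were -0.08, 0.02, 0.06 and -0.03, and their 2 SE intervals reached no farther than -0.47 and 0.58. Tyk2 was 5.35 ± 0.283 CPM (SD, n = 3) in control and 4.41 ± 0.262 CPM (n = 3) in Sox2Hi grafts, and its groups did not overlap. Its log2 fold change of -0.28 did not pass the test (adjusted p = 0.35, edgeR), and 32.5% of all genes tested did not overlap between these groups. The count of 0 of 8 called stands beside 14% of all genes called, and 1 member (Ifnar1) had an unadjusted p under 0.05, as had 26.6% of all genes.

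The replicate numbers of the naive libraries paired them in the data, since same-numbered libraries deviated together. With the number as a block and the 6 naive libraries alone, Ifnar1 (log2 fold change 0.48 ± 0.14 SE, adjusted p = 0.034, edgeR) and Jak1 (0.38 ± 0.12 SE, adjusted p = 0.041) were called higher in Sox2Hi grafts, where 8.93% of 11958 genes were called higher and 23.3% in either direction. limma-voom with quality weights also called Ifnar1 (0.54, adjusted p = 0.0034) and Jak1 (0.38, adjusted p = 0.016), with 36.6% of all genes called. Neither called Ifngr1 or Ifngr2, which were higher in Sox2Hi in every same-numbered pair. Ifngr1 gave 140 and 174, 193 and 222, and 112 and 137 CPM in control and Sox2Hi. Ifngr2 gave 27.1 and 33.6, 27.5 and 31.1, and 21.6 and 25.9 CPM. The share of all genes with such pairs was not computed. The log2 fold changes of Ifnar1 and Jak1 were above 0 under every scaling tried. Some marker shares also separated the naive grafts. Macrophage and dendritic cell markers took 0.0718 to 0.107% in control and 0.118 to 0.156% in Sox2Hi naive libraries. B and plasma cell markers took 0.00649 to 0.0122% and 0.0165 to 0.0768%. Shares of the other marker lists overlapped. Expected background was 5.02 to 8.39% in control and 3.63 to 3.92% in Sox2Hi naive libraries. The part of these in the graft differences was not tested.

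Between treated grafts the largest differences were in Jak2 and Ifnar2, both lower in Sox2Hi, and neither passed the test. Jak2 averaged 240 ± 22.5 CPM (SD, n = 2) in control and 155 ± 22.8 CPM (n = 2) in Sox2Hi grafts, 1.54-fold lower. Its groups did not overlap, and the log2 fold change was -0.63 ± 0.21 (SE, adjusted p = 0.06, edgeR). Ifnar2 averaged 91.9 ± 9.14 and 61.9 ± 16.3 CPM (n = 2 each), also without overlap, at -0.57 ± 0.23 (SE, adjusted p = 0.11). DESeq2 called both (Jak2 -0.79, adjusted p = 0.012; Ifnar2 -0.73, adjusted p = 0.029), with 27.9% of all genes called, while limma-voom called neither. Jak2 was also called without control naive replicate 2 or 3. The median log2 fold change of genes of 100 CPM or more, the class of Jak2, was -0.38 between treated grafts. It was -0.10 for genes of 20 to 100 CPM, the class of Ifnar2, 0.04 for all genes tested and -0.22 for the 8 members.

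The remaining members overlapped between treated grafts, except Tyk2. Log2 fold changes were -0.22 for Ifnar1, -0.27 for Ifngr1, -0.13 for Ifngr2, -0.23 for Jak1, -0.07 for Socs1 and -0.03 for Socs3. Tyk2 was 5.37 ± 1.16 CPM in control and 6.65 ± 0.335 CPM in Sox2Hi grafts (SD, n = 2 each), without overlap, at 0.30 with a 2 SE interval from -0.12 to 0.72. The means of the inhibitors were close: 47.3 ± 15.5 and 46.4 ± 2.35 CPM for Socs3, and 7.58 ± 3.48 and 7.22 ± 1.37 CPM for Socs1. The 2 SE interval for Socs3 ran from -0.49 to 0.44. The count was 0 of 8 beside 20.9% of all genes called, with 2 members (Ifnar2 and Jak2) and 35.9% of all genes at an unadjusted p under 0.05. Groups did not overlap for 3 of 8 members and for 60.6% of all genes.

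The difference between the grafts' responses was tested directly as an interaction, in which a negative value means a smaller response in the Sox2Hi graft. No member passed it, beside 19.8% of all genes. The values were -0.65 ± 0.28 (SE) for Jak2, -0.63 ± 0.28 for Ifnar1, -0.54 ± 0.25 for Jak1, -0.53 ± 0.36 for Ifngr1, -0.49 ± 0.30 for Ifnar2 and -0.38 ± 0.26 for Ifngr2, with adjusted p from 0.13 to 0.35 (edgeR). Thus all 4 receptor chains and both JAKs had negative values, and Ifnar1 and Jak2 had an unadjusted p under 0.05, as had 32.5% of all genes. Socs3 was at 0.00 ± 0.30 and Socs1 at -0.12 ± 0.40, and Tyk2 had a positive value, 0.58 ± 0.27. Leaving out control naive replicate 2 gave calls for Ifnar1 and Jak2, and leaving out control treated replicate 2 for Ifnar1 and Jak1. DESeq2 called Ifnar1, Jak1 and Jak2 (29.8% of all genes called), limma-voom Ifnar1 (24.4%) and the replicate block by title number Jak2 (24%). The members' median was -0.51, beside 0.02 for all genes and -0.37 for genes of 100 CPM or more. The interaction uses all 4 groups, so it shares its libraries with each comparison above.

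These calls depended on what the libraries were scaled to. Scaling to all 29648 genes that passed a lenient filter, low genes included, moved the median log2 fold change of genes of 20 to 100 CPM from 0.08 to 0.62 for treatment of control grafts and from 0.00 to -0.27 for treatment of Sox2Hi grafts. It moved the same median from 0.03 to 0.40 between naive and from -0.10 to -0.55 between treated grafts, and from -0.16 to -0.98 for the interaction. Under it 2 of 9 members, Ifnar1 (0.79) and Jak1 (0.70, adjusted p = 0.044 each, edgeR), were called higher in Sox2Hi naive grafts, where 1.66% of genes were higher. In treated grafts 4 of 9 were called lower in Sox2Hi (Jak2 -1.08, Ifnar2 -1.01, Jak1 -0.67 and Ifnar1 -0.66), where 9.57% of genes were lower. All 4 receptor chains and both JAKs were called in the interaction, between -1.48 and -1.20, where 16.2% of genes were called lower. Treatment of the control graft kept the members of the first scaling and added Socs1 (8 of 9, with 18.7% of genes higher). Socs1 was tested here because of the lower filter, and the wider test with the first scaling called it too. Treatment of the Sox2Hi graft called 0 of 9 (1.79% of genes higher), with Ifnar2 at 0.50 (adjusted p = 0.17, edgeR). The members' median in the interaction was -1.31 (9 members) beside -0.98 for genes of 20 to 100 CPM and -1.20 for genes of 100 CPM or more here, and -0.51 (8 members) beside -0.16 and -0.37 before.

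**Figure D3:**
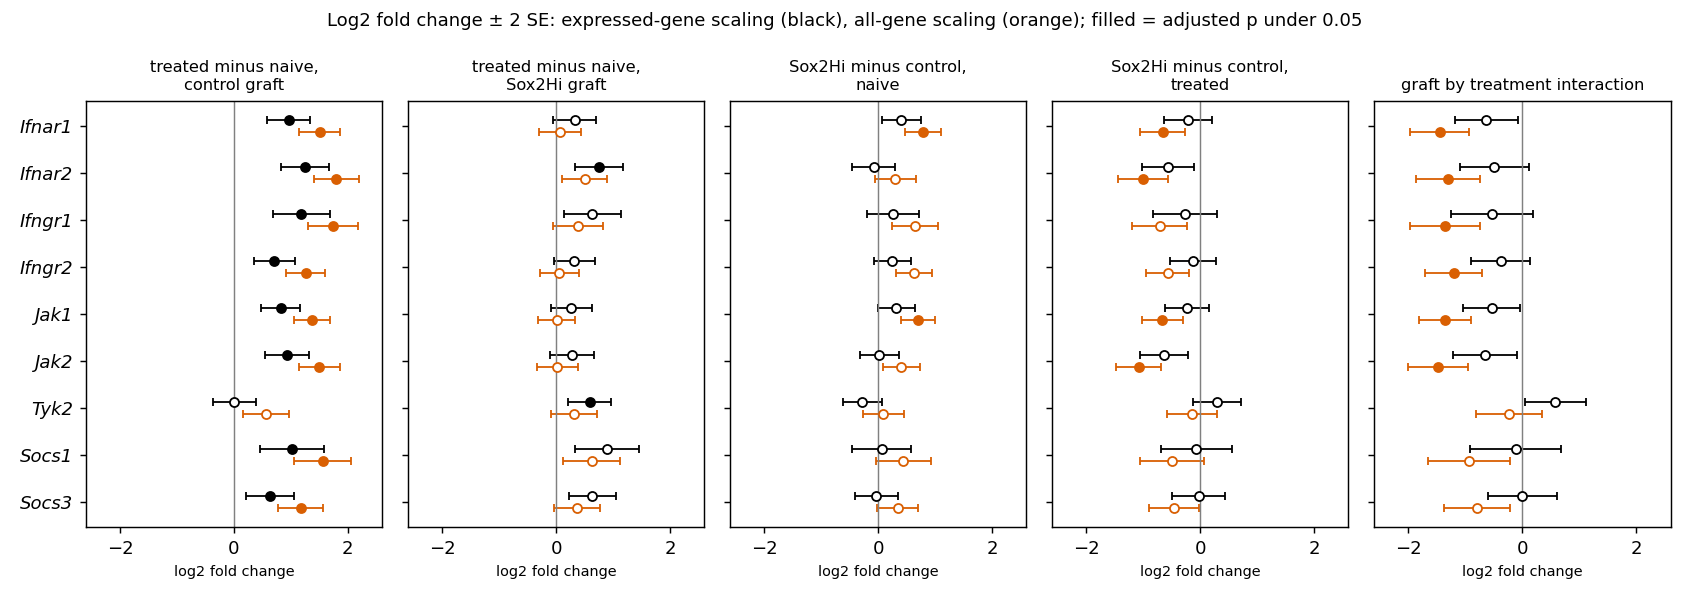
Log2 fold change (x axis) of each member (y axis) in the 5 comparisons, with bars of 2 SE, under scaling to expressed genes (black; Socs1 from the test of genes of at least 1 CPM) and under scaling to all genes (orange); filled points have an adjusted p under 0.05. The orange points lie to the right of the black ones for treatment of the control graft and to the left for the interaction, by a similar step for every member.

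Ratios of partners within a library involve no scaling, and they were compared between grafts for the 2 receptors and for the JAK pair of the interferon gamma receptor. These ratios were chosen after the data had been seen, and the share of other gene pairs that separate the groups was not computed. Of single genes tested, 32.5% did not overlap between naive grafts and 60.6% between treated grafts. The log2 ratio of Ifnar2 to Ifnar1 counts per kb was 0.94, 0.92 and 0.91 in control naive and 0.44, 0.53 and 0.31 in Sox2Hi naive libraries. It was 1.14 and 1.30 in control treated and 0.75 and 0.94 in Sox2Hi treated libraries. At each treatment every Sox2Hi library lay below every control one, and in each graft every treated library lay above every naive one. The graft difference within treatment was -0.45 (exact two-sided permutation test, p = 0.017, adjusted p = 0.033 over 6 tests of ratios) and the treatment difference within graft was 0.36 (exact permutation p = 0.01, adjusted p = 0.033). These are the smallest p-values that the 120 and 100 arrangements allow. With naive libraries swapped only within same-numbered pairs, the graft difference had p = 0.042 (exact permutation), the smallest that 48 arrangements allow. Adjusted over the 6 tests it was 0.062. From so high a smallest p a call was hardly possible, so its absence decides nothing. The treatment difference was the same test as before (exact permutation p = 0.01). Its adjusted p became 0.06 only because other p-values of the family changed.

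The ratio of Jak2 to Jak1 had lower means in Sox2Hi grafts. Its log2 value was 0.39, 0.37 and 0.12 in naive and 0.14 and 0.73 in treated libraries of the control graft. In the Sox2Hi graft it was 0.04, -0.03 and 0.03 in naive and -0.07 and 0.10 in treated libraries. The control libraries spread widely and the Sox2Hi ones stayed between -0.07 and 0.10, so the lowest control values (0.12 and 0.14) came near the highest Sox2Hi one. The graft difference was -0.33 (exact two-sided permutation p = 0.017, adjusted p = 0.033; with naive pairs kept p = 0.042, adjusted p = 0.062), and it was -0.23 (p = 0.033, exact permutation) without control treated replicate 2. Leaving out any Sox2Hi library raised that p to between 0.05 and 0.083 (exact permutation). The treatment difference was 0.07 (p = 0.63, exact permutation).

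The ratio of Ifngr1 to Ifngr2 did not separate the grafts. Its means were 2.92 ± 0.26 (SD, n = 3) in control naive and 2.94 ± 0.26 (n = 3) in Sox2Hi naive libraries on the log2 scale, and the graft difference was -0.05 (exact permutation p = 0.78). Treated libraries were higher by 0.42 within grafts (exact permutation p = 0.03, adjusted p = 0.045, and 0.062 in the family with naive pairs kept), and by 0.39 with background subtracted (exact permutation p = 0.04, adjusted p = 0.06). Subtracting background left the graft differences of the Ifnar2 and Jak2 ratios at -0.47 and -0.34 with the same p-values. Counts per kb use the exon length of the gene, so a change in transcript form between groups would also move these ratios and was not tested.

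**Figure D4:**
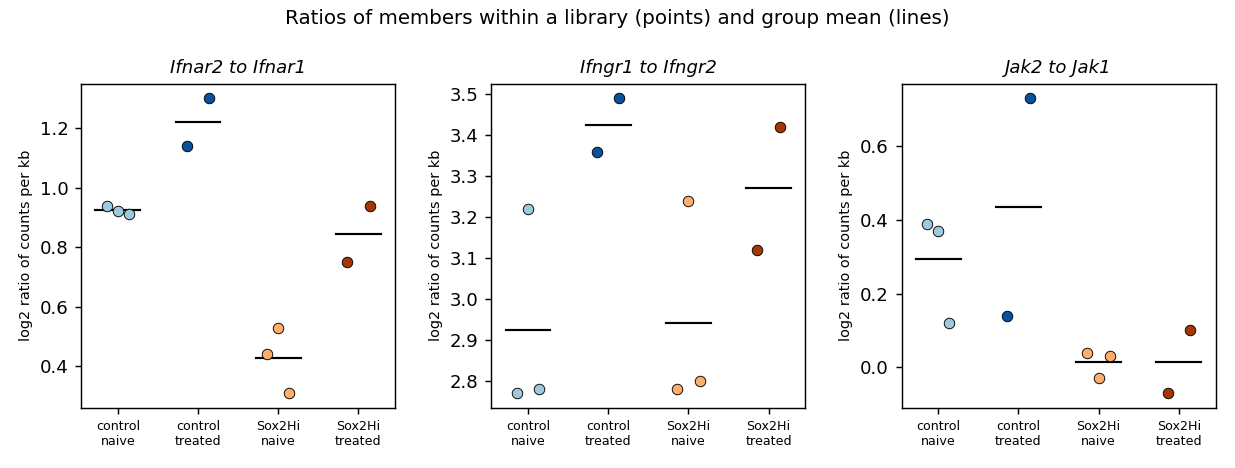
Log2 ratio of counts per kb (y axis) of Ifnar2 to Ifnar1, Ifngr1 to Ifngr2 and Jak2 to Jak1 within each library (points) of the 4 groups (x axis), with group means as lines. Sox2Hi libraries lie below control ones of the same treatment for Ifnar2 to Ifnar1 (means 0.42 against 0.92 naive, and 0.84 against 1.22 treated) and overlap them for Ifngr1 to Ifngr2.

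Downstream of the receptors, several transducers rose with treatment. Of 9 tested genes of an 11-gene list of transducers and further chains, 6 were higher and 0 lower in treated control grafts and 4 higher and 0 lower in treated Sox2Hi grafts, with medians of 0.94 and 0.54. Of all genes tested, 24.1% and 15% were higher. Stat2, a transducer of type I interferon, rose by 1.52 ± 0.22 (log2, SE) and 1.16 ± 0.22 in the 2 grafts, and Irf9, its DNA-binding partner, by 0.95 ± 0.19 and 0.75 ± 0.19. Stat3 rose in the control graft (1.02 ± 0.21) and Stat6, which serves interleukin 4, in both (0.91 ± 0.21 and 0.67 ± 0.21). Stat4, Stat5a and Stat5b passed in neither graft (0.76, -0.40 and 0.25 in the control graft), and the receptor chain Il10rb, of the interleukin 10 family, rose in the control graft (0.94 ± 0.20). None of the 9 was called between naive grafts, between treated grafts or in the interaction, beside 14%, 20.9% and 19.8% of all genes. Under the all-gene scaling 9 of 11 were higher in treated control grafts (18.7% of genes) and 1 of 11 in treated Sox2Hi grafts (1.79%), where Stat2, Irf9 and Stat6 were not called. There Stat3 was called higher in Sox2Hi naive grafts (0.77, adjusted p = 0.049, edgeR), 4 of 11 (Stat2, Stat4, Irf9 and Il10rb) were lower in Sox2Hi treated grafts (9.57% of genes), and 6 of 11 were called lower in the interaction (16.2% of genes).

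Other negative regulators were mixed, and their calls depended on the scaling. Of 18 tested from a list of 20, 8 were higher and 3 lower in treated control grafts and 5 were higher in treated Sox2Hi grafts, beside 24.1% and 15% of all genes higher. Isg15, an interferon-induced ubiquitin-like modifier, rose by 2.03 ± 0.27 (log2, SE) and 1.76 ± 0.27, and Usp18, which blocks JAK1 at IFNAR2, by 1.51 ± 0.20 and 1.14 ± 0.20. Ptpn1, a phosphatase of JAK2 and TYK2, rose by 1.60 ± 0.22 and 0.91 ± 0.22, and the SOCS relative Cish by 0.95 ± 0.26 and 0.79 ± 0.25. Of the Cish reads, 60 ± 11% (SD, n = 3) were at the background rate in control naive and 11.5 ± 1.15% (n = 2) in control treated libraries. In Sox2Hi grafts the means were 26% when naive and 23% when treated. Socs5 fell by 1.95 in treated control grafts, and 50% of its control naive reads were at the background rate. Between naive grafts 0 of 18 were called (14% of all genes), and between treated grafts (20.9% of all genes) 2 were higher in Sox2Hi (Socs5 1.50 and Trim24 0.77) and 3 lower, among them Pias2 (-0.79) and Ptpn2 (-0.62), a phosphatase of JAK1. Socs5 (1.04, adjusted p = 0.076, edgeR) and Trim24 (0.31, adjusted p = 0.47) were not called under the all-gene scaling. It gave 10 of 20 higher (18.7% of all genes) and 2 lower in treated control grafts, and 2 higher (1.79% of all genes) in treated Sox2Hi grafts, where Ptpn1 (0.65, adjusted p = 0.085) and Cish (0.53, adjusted p = 0.19) lost their calls. Between treated grafts it gave 0 higher and 8 lower in Sox2Hi (9.57% of all genes lower), and in the interaction 0 higher and 11 lower (16.2% of all genes lower).

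Chains of other cytokine receptors that use these kinases were also among the genes that rose. Of 14 tested from a list of 17, 7 were higher and 3 lower in treated control grafts and 4 higher and 1 lower in treated Sox2Hi grafts, beside 24.1% and 15% of all genes higher and 57.3% and 21.6% in either direction. Il2rg, the common gamma chain, rose by 2.71 ± 0.26 and 1.98 ± 0.25 (log2, SE) and Il15ra by 2.07 ± 0.22 and 1.77 ± 0.23. Csf3r, the G-CSF receptor, rose by 1.39 ± 0.27 in the control graft, and Ghr fell by 1.53 and by 1.11. Between treated grafts Il15ra (-0.87, adjusted p = 0.032, edgeR) and Il13ra1 (-0.76, adjusted p = 0.019) were lower in Sox2Hi, and Il6st, the shared chain of the interleukin 6 family, was higher (0.81, adjusted p = 0.016), which was 0.37 and not called under the all-gene scaling (adjusted p = 0.24). Prlr was higher by 3.06, on libraries of 8.29 and 73 CPM that disagreed. Under the all-gene scaling 9 of 16 were higher (18.7% of all genes) and 2 lower in treated control grafts, and 3 higher (1.79% of all genes) and 1 lower in treated Sox2Hi grafts. Between treated grafts 1 was higher and 5 lower in Sox2Hi (9.57% of all genes lower), and in the interaction 2 were higher and 7 lower (16.2% of all genes lower).

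Of 15 ligand genes, 4 reached the filter. Osm rose in both grafts (0.95 ± 0.22 and 0.70 ± 0.22, log2, SE), the second not called under the all-gene scaling (0.44, adjusted p = 0.26, edgeR), and Il10 in the control graft (0.94 ± 0.31). Ifng, the ligand of IFNGR1, missed the 5 CPM filter: it had 7, 15 and 5 counts in naive and 23 and 221 in treated libraries of the control graft. In the Sox2Hi graft it had 8, 13 and 6 counts in naive and 83 and 63 in treated libraries. Treated libraries were higher in both grafts, and the highest was control treated replicate 2. In the wider test of genes of at least 1 CPM, Ifng rose by 3.72 ± 0.72 (log2, SE, adjusted p = 0.0018, edgeR) in control and by 3.34 ± 0.74 (adjusted p = 0.019) in Sox2Hi grafts, where 14.3% and 7.96% of genes were higher. Its naive reads were at the background rate in control (126 ± 46.9%, SD, n = 3) and near it in Sox2Hi grafts (78.9 ± 30.5%, n = 3). Markers of T and NK cells, which make interferon gamma, took 0.00824 to 0.0293% of counts in treated and 0.00285 to 0.00785% in naive libraries, and their part in the Ifng counts was not tested.

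The genes whose log2(CPM + 1) followed a member most closely over the 10 libraries, out of 7203 searched, are given by Pearson r as a description. The points share libraries, scaling and depth. For Ifnar2 they were Tbk1 (r = 0.989), a kinase that induces type I interferon, and Snx10 (0.988), and for Ifnar1 the integrin chain Itgb2 (0.977) and Fnbp1 (0.977). Ifngr1 was followed by Nfkbie (0.987) and Cd37 (0.985), and Ifngr2 by the phosphatase gene Ptpn6 (0.980) and the copper transporter gene Atp7a (0.977). Jak1 was followed by Laptm5 (0.983) and Gpr132 (0.982), and Jak2 by Fbxo11 (0.991) and the nuclear lamina gene Lmnb1 (0.990). Socs1 was nearest to the interferon-inducible Trafd1 (0.985) and Lgals3bp (0.974), Socs3 to Susd6 (0.974) and Zmiz1 (0.967), and Tyk2, less closely, to Ubr3 (0.934) and Relch (0.903).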

How the data were processed

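RNA of Tomato+ neutrophils was sequenced in 10 libraries; per the labels' protocols, RNA came from a column microprep kit and a low-input library kit was used. Estimated counts were deposited by the authors in 1 table per Ensembl gene, as whole numbers and used as deposited (rounding changed nothing). The submitters' processing notes name kallisto 0.44.0 and mm10, with no role stated. Of 55481 entries, 92 spike-ins and 4 transgene sequences were left out, and 55144 identifiers matched GENCODE M21.

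Groups were taken from the sample titles. Genes whose mean reached 5 CPM of library totals (11274) were scaled by TMM factors computed on them and tested with edgeR 4.0.16 (quasi-likelihood F-test, R 4.3.3), all 4 groups in one model (common coefficient of variation 0.2122), with Benjamini-Hochberg adjustment over all genes tested and calls at an adjusted p under 0.05. SE was taken as the absolute log2 fold change over the root of the F statistic. limma 3.58.1 (voom with quality weights) and DESeq2 1.42.0 were alternatives, with other scalings, filters, blocks, a Ddx3y term, background subtraction and each library left out. The analysis was checked on simulated data.

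The members, pathway lists and marker lists were chosen with earlier results of these data known. All 9 members are described, up to 4 called genes with the largest change per list, and the 2 nearest genes of each member among genes of at least 10 CPM (pseudocount 1). The wider test that includes Socs1, the whole-library totals and the ratios were added after the data had been seen. Ratios were tested by exact two-sided permutation of libraries within treatment or within graft, and for grafts also within naive pairs.

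No 2 libraries of a group agreed within sampling noise (chi-square per degree of freedom at least 12.5). Deviations of same-numbered naive libraries of the 2 grafts correlated at 0.273, 0.325 and 0.474, so the number was taken as a pairing there; the treated pairs correlated at -0.095. Naive pairs were also alike in Ddx3y counts (4 and 6, 3854 and 2814, 1436 and 1007), unlike the treated pairs (8 and 3980, 6618 and 7). Replicate numbers are those of the titles; descriptions number the treated libraries differently, and were used in an alternative block. A gene of the transducer list is counted but not reported here by name.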

Additional observations from a re-analysis of the deposited data

Results flagged for a closer look

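Of 45 pathway genes tested around the members, 4 (8.89%) differed between the grafts in their response to treatment by the edgeR interaction test, a smaller share than the 19.8% of all genes, and they are given as single values. Socs5 had an interaction of 1.61 (log2), with 50 ± 25.6% (SD, n = 3) of its control naive and 77.9 ± 41.9% (n = 2) of its control treated reads at the background rate, and it was 0.79 with an adjusted p of 0.19 (edgeR) under scaling to all genes. Pias2 had an interaction of -0.98 (log2), and it was -1.80 under scaling to all genes. Il6st had an interaction of 1.00 (log2), and it was 0.18 with an adjusted p of 0.61 (edgeR) under scaling to all genes. Prlr had an interaction of 4.22 (log2), with 8.29 and 73 CPM in the 2 Sox2Hi treated libraries.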

How the results depend on the processing

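Counts of members called under expressed-gene scaling were 7 and 2 for treatment of control and Sox2Hi grafts, 0 between naive grafts, 0 between treated grafts and 0 in the interaction. For treatment of control grafts, scaling by library totals gave 4, and single libraries left out gave 6 to 8. For treatment of Sox2Hi grafts, all-gene scaling, RLE factors, library totals, no filter and a filter of 1 CPM gave 0. The 20 CPM filter, DESeq2, TMM with whole-library totals, the wider test and background subtraction gave 1, limma-voom (Ifnar2, Tyk2, Socs3) and the block by description number (Ifnar2, Ifngr1, Socs3) gave 3, the 2 groups alone gave 4, and single libraries left out gave 0 to 3. Between naive grafts, all-gene scaling, no filter, the 1 CPM filter, limma-voom and the replicate block on naive libraries alone gave 2, in each case Ifnar1 and Jak1, and single libraries left out gave 0. Between treated grafts, all-gene scaling gave 4, no filter 3, the 1 CPM filter and DESeq2 2, RLE factors, whole-library totals and the replicate block by title number over all libraries 1 (Jak2), and single libraries left out 0 to 1. In the interaction, all-gene scaling, no filter and the 1 CPM filter gave 6, DESeq2 3, limma-voom (Ifnar1), whole-library totals and the replicate block (Jak2) 1, and single libraries left out 0 to 2. The cause of these differences was not tested.

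The replicate block by title number over all libraries called 7 and 2 members for the treatments (in Sox2Hi grafts Ifnar2 and Socs3, not Tyk2) and 0 between naive grafts. The interaction of Il6st was -0.02 with no filter (adjusted p = 1, edgeR). Of 1023 alternative values of the members' log2 fold changes, 81 had the other sign, and in 0 of these was either value called. Over all genes, calls were 6456, 2433, 1576, 2353 and 2228 in the order above, 10078, 1070, 554, 4076 and 8149 under all-gene scaling, and 12995, 2287, 3983, 5213 and 8187 in the wider test. They were 3120, 1650, 376, 540 and 397 with the 20 CPM filter, 10429, 1651, 1137, 4196 and 7803 with that of 1 CPM, and 7837, 899, 648, 3161 and 6556 with none. Background subtraction gave 5165, 2161, 850, 976 and 1132, and library totals 7501, 3034, 1016, 2953 and 2233. DESeq2 gave 6537, 3049, 1871, 3141 and 3355, limma-voom 6742, 3765, 4129, 1783 and 2751, and RLE factors 6316, 2255, 1070, 2298 and 2729. The groups compared alone gave 5524, 3332, 14 and 816, and the blocks within naive and within treated libraries 2782 and 850. Leaving out 1 library gave 4974 to 6572, 194 to 3268, 4 to 1955, 334 to 2669 and 1512 to 2384. The 2 treated libraries a group limit what could be detected. Tyk2 and Socs1 had at most 139 counts a library, and the part of depth in their results was not tested. For treatment of control grafts the SE of Tyk2 was 0.19, the same as that of Jak2, and that of Socs1 was 0.28 in the wider test.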
